A study of Mus musculus with 14 samples.

Results

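Macrophages grown in culture from the bone marrow of wild-type (WT) mice were compared after 24 h in medium that Hepa1-6 cells, a liver cancer line of the mouse, had conditioned and after 24 h in complete DMEM. These are called conditioned medium (CM) and control medium. The comparison rests on 8 of the series' 14 RNA sequencing libraries, 4 in each medium, picked by their labels and not by any measured value. The other 6 libraries came from Ezh2fl/fl;LysM-Cre+/- mice (Ezh2 KO), in which Cre made from the lysozyme M gene recombines floxed Ezh2 in myeloid cells. They comprise 3 libraries in each medium and are used here only to test where the WT response differed from that of KO cells. The WT mice were littermates of the KO mice, and the labels do not spell out their alleles. Marrow of both genotypes was grown with fetal bovine serum, horse serum and medium from L929 cells, a usual source of the macrophage growth factor M-CSF. All samples of CM came from Hepa1-6 cells, so effects of liver cancer cells in particular and of any cell-conditioned medium cannot be told apart here. No label ties a library to an animal. The p-values therefore reflect how far these libraries scatter, and that scatter may be technical.

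Macrophages change state with the signals around them. Interleukin 4 and interleukin 13 act through the receptor chain Il4ra and STAT6 to induce alternative activation, marked in mice by arginase 1 (Arg1), the mannose receptor (Mrc1) and Retnla. Interferon gamma and microbial products induce classical activation, marked by Nos2, interleukin 12 and interferon-responsive genes. Sterol synthesis, protein folding in the endoplasmic reticulum (ER) and cell division are further programmes, each with its own regulators, and tumor cells release many factors that can reach such pathways.

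Each control library held 45.2 to 82.1 mega-counts (M) over distinct exons, and each CM library 41.3 to 85.8 M. Libraries 3 and 4 of both media held 80.4 M or more, and libraries 1 and 2 held less than that. The first principal component of log CPM (61.5% of the variance) separated the media, and the second (20.1%) separated libraries 1 and 2 from libraries 3 and 4. The labels name no batch, so these pairs are called library sets, and the set was a term in the fit. In the WT libraries, 2 Ezh2 exons of 81 and 85 bp held 94.0% to 169.5% of the count per base of the other Ezh2 exons, against 2.07% to 31.7% in the KO libraries. The macrophage genes Lyz2 and Csf1r were abundant in both media: Lyz2, which encodes lysozyme, was at 21677 ± 2327 CPM in control medium and 20209 ± 1201 CPM in CM, and Csf1r, the M-CSF receptor, at 4936 ± 500.5 CPM in control medium and 3594 ± 147 CPM in CM (mean ± SD, n = 4). Levels are counts per M of the scaled library total (CPM). Changes are log2 fold changes of CM against control medium ± their approximate standard error (SE). For genes almost without counts in a medium, such as Arg1 below, this SE can be smaller than the counting error.

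Of 13091 genes tested, 6839 (52.2%) changed at an adjusted p below 0.05 in edgeR's quasi-likelihood test: 3477 (26.6%) were higher in CM and 3362 (25.7%) lower. Most changes were small. The median change over all tested genes was -0.0057, the 5th and 95th percentiles were -0.81 and 0.95, and 4737 of the called genes differed by 1.5-fold or less. Changes of 2-fold or more numbered 594 upward (4.54% of tested genes) and 412 downward (3.15%). For 4347 called genes (33.2% of those tested), no library of one medium overlapped with those of the other. With this many calls, a gene list is read below against the shares of 26.6% and 25.7%, not against 0. A list can exceed both shares without moving one way. Of 27 Toll-like receptor genes and adaptors, for example, 88.9% were called, 13 higher and 11 lower. The split depends on scaling: by library totals alone 2591 genes were higher and 4713 lower, and the median of all genes moved to -0.085.

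**Figure D1:**
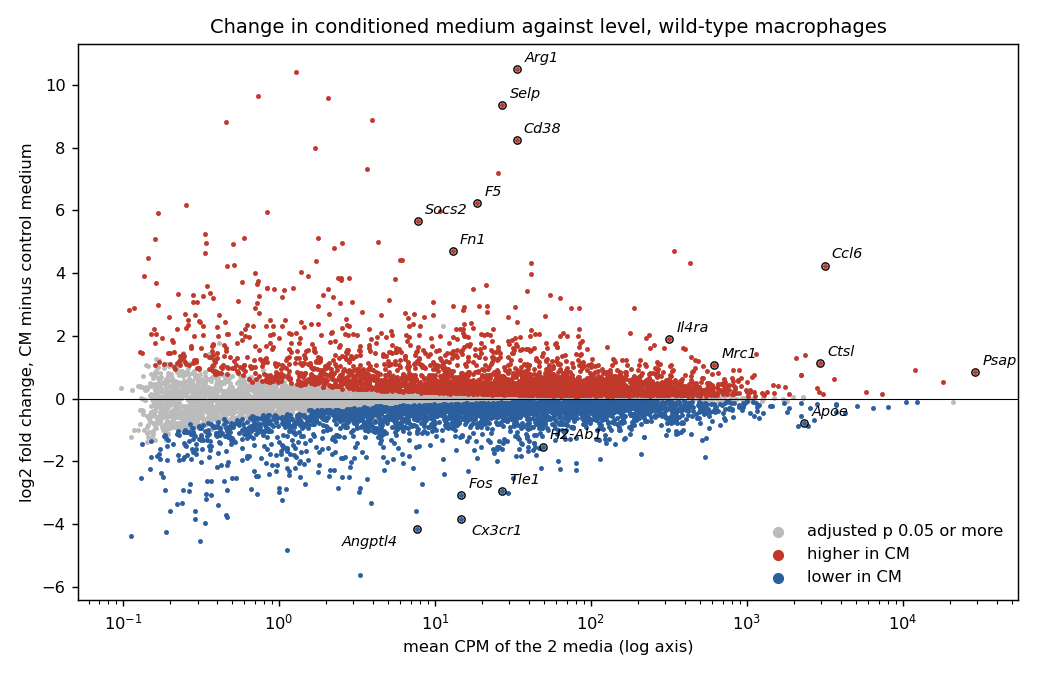
Change in CM (log2 fold change, vertical axis) against the mean CPM of both media (horizontal log axis) for 13091 genes, with 3477 called higher in red, 3362 called lower in blue and the rest in grey. The largest increases, such as Arg1 and Selp, are of genes with almost no counts in control medium, while abundant genes such as Ccl6, Ctsl and Psap also rose.

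Alternative activation genes rose more often than they fell. Of 30 tested members, 18 rose and 5 fell, with a median of 0.89, and 14 rose 2-fold or more. Arg1, which splits arginine into ornithine and urea, went from a total of 12 counts in the control libraries to 16909 in CM: it stood at 0, 0, 0.0962 and 0.0472 CPM in control libraries 1 to 4 and 58.6, 72.4, 60.6 and 77.9 CPM in CM libraries 1 to 4. Its change of 10.50 ± 0.22 (edgeR adjusted p = 7.57e-14) was the largest in the ranking described below, of genes that averaged at least 4 CPM. The media did not overlap. Il4ra, the receptor chain shared by interleukins 4 and 13, was at 133, 136, 132 and 140.5 CPM in control medium and 482, 514, 479 and 524 CPM in CM (1.89 ± 0.041, edgeR adjusted p = 9.8e-14). The galactose-binding lectins Clec10a (2.10 ± 0.047) and Mgl2 (4.33 ± 0.17) rose in all CM libraries. Mrc1, the mannose receptor, was at 359, 339, 450.0 and 451 CPM in control medium and 772, 845, 785 and 942 CPM in CM, a change of 1.07 ± 0.063 (edgeR adjusted p = 3.04e-09). Libraries of each medium lay close together for the receptors given by library, and no CM library overlapped a control library.

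Retnla, a secreted protein of alternatively activated macrophages, had 0 counts in each control library and 31, 69, 111 and 180 in CM libraries 1 to 4. Against 3 counts over the control group, it was at least 140-fold higher in CM. Rnase2a, a ribonuclease of the eosinophil-associated family, went from 0 counts to 652 with CM, an increase of at least 234-fold. Its near-identical relatives may share reads with it, which makes its own count uncertain. Ccl17, a chemokine that acts on Ccr4, rose by 6.16 ± 0.68 from a mean of 0.00301 CPM, and Cd209a, a C-type lectin, by 5.96 ± 0.51. Both were at under 0.1 CPM in each control library. Cd209a had 6 counts in control medium, all in library 4, and 373 in CM. With so few counts in control medium, the folds of Ccl17 and Cd209a are uncertain and their SE may be too small.

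The programme did not move as a whole. Pparg, a nuclear receptor linked to alternative activation, was at 41.7, 39.9, 49.6 and 50.5 CPM in control medium and 27.7, 23.9, 28.1 and 26.1 CPM in CM and fell (-0.78 ± 0.061, edgeR adjusted p = 6.6e-08). Matk (-0.94 ± 0.069), a kinase that restrains Src family kinases, Stab1 (-0.29 ± 0.04), Cd36 (-0.21 ± 0.064) and Il1rn (-0.25 ± 0.086) were the other called decreases in the list. Without the set term the last 3 were not called (adjusted p = 0.233, 0.101 and 0.135), in libraries 1 and 2 alone Cd36 changed by only -0.064 (0.491) and Il1rn by -0.12 (0.509), and the Il1rn call was also lost without control library 1, 3 or 4 or CM library 3. Among members that did not pass, Chil3, a chitinase-like protein, was at 0.491 ± 0.279 CPM in control medium and 0.436 ± 0.138 CPM in CM (-0.13 ± 0.38), and Irf4 at 9.96 ± 0.836 CPM in control medium and 10.4 ± 0.365 CPM in CM (0.061 ± 0.078). Ccl22 did not pass either, and with a change of 0.15 ± 0.53 its direction and size are uncertain. The scavenger receptor Cd163 rose by 0.22 ± 0.048 (edgeR adjusted p = 0.00156).

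Classical activation genes were split, with 4 of 18 tested members higher and 6 lower (median 0.0074). Cd38, a surface enzyme that consumes NAD, was at 0, 0.194, 0.349 and 0.248 CPM in control medium and 59.9, 63.1, 67.7 and 75.3 CPM in CM (8.23 ± 0.17, edgeR adjusted p = 6.28e-14). Socs3, which inhibits JAK kinases, rose by 2.95 ± 0.081 and Il1a, a proinflammatory cytokine, by 3.25 ± 0.47. The interferon-induced chemokines Cxcl9 (-3.59 ± 0.57) and Cxcl10 (-1.62 ± 0.17), the cytokine Tnf (-1.24 ± 0.12) and the costimulatory ligand Cd86 (-0.77 ± 0.079) fell. Of the defining products, Nos2 had 29 counts in control medium and 29 in CM, 27 of the latter in library 4. Il12b had 10 and 17 counts, and Il6, an inflammatory cytokine, had 0, 2, 0 and 4 counts in control libraries 1 to 4 and 2, 21, 14 and 46 in CM libraries 1 to 4. CM library 1 lay within the control range for Il6. These 3 genes did not pass the filter on low counts. In the fit without it, Il6 was higher in CM (3.73 ± 0.717, edgeR adjusted p = 1.87e-06), and Nos2 (-0.24, 0.838) and Il12b (0.89, 0.561) did not pass. Il1b was at 3.54 ± 0.468 CPM in control medium and 4.06 ± 2.67 CPM in CM (0.19 ± 0.28, edgeR adjusted p = 0.596), which did not pass.

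The 15 largest increases and the 15 largest decreases were ranked among called genes that averaged at least 4 CPM and did not overlap between media. Predicted, clone, RIKEN, microRNA, mitochondrial, pseudogene, immunoglobulin and T cell receptor symbols were left out of this ranking and of the later one by level. The adhesion molecule Selp (P-selectin) was among the largest increases, at 0, 0.0776, 0.0842 and 0.13 CPM in control medium and 48.4, 47.4, 57.1 and 63.2 CPM in CM. F5, coagulation factor V, was at 0.58, 0.446, 0.445 and 0.507 CPM in control medium and 37.2, 35.7, 36.6 and 38.2 CPM in CM. Both were under 1 CPM in every control library and above 30 CPM in every CM library. Rasgrp1, an activator of Ras, rose by 5.98 ± 0.18 and Nrg1, a ligand of ErbB receptors, by 5.00 ± 0.27. Fn1, the matrix protein fibronectin, was at 0.938 ± 0.332 CPM in control medium and 25.1 ± 2.07 CPM in CM (4.71 ± 0.13, edgeR adjusted p = 1.48e-12). Further increases of this set were Socs2 (5.66), C4b (4.42), Tgm1 (4.42) and the more abundant Ednrb, Gda and Ccl6 described below, besides Mgl2, Cd38 and Arg1.

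Ednrb, the endothelin B receptor, was at 21.7, 25.8, 25.6 and 26.9 CPM in control medium and 655, 628, 685 and 664 CPM in CM, and Gda, which deaminates guanine, at 33, 37.4, 47.9 and 47.2 CPM in control medium and 799, 801, 831 and 856 CPM in CM. These 2 genes were already expressed in control medium and rose by 4.72 ± 0.053 and 4.32 ± 0.069. In mm10, Arg1 lies on chromosome 10, 24915221 to 24927484, Selp on chromosome 1, 164115264 to 164150026, Cd38 on chromosome 5, 43868553 to 43912375, Ednrb on chromosome 14, 103814625 to 103844402 and Gda on chromosome 19, 21391307 to 21473445.

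**Figure D2:**
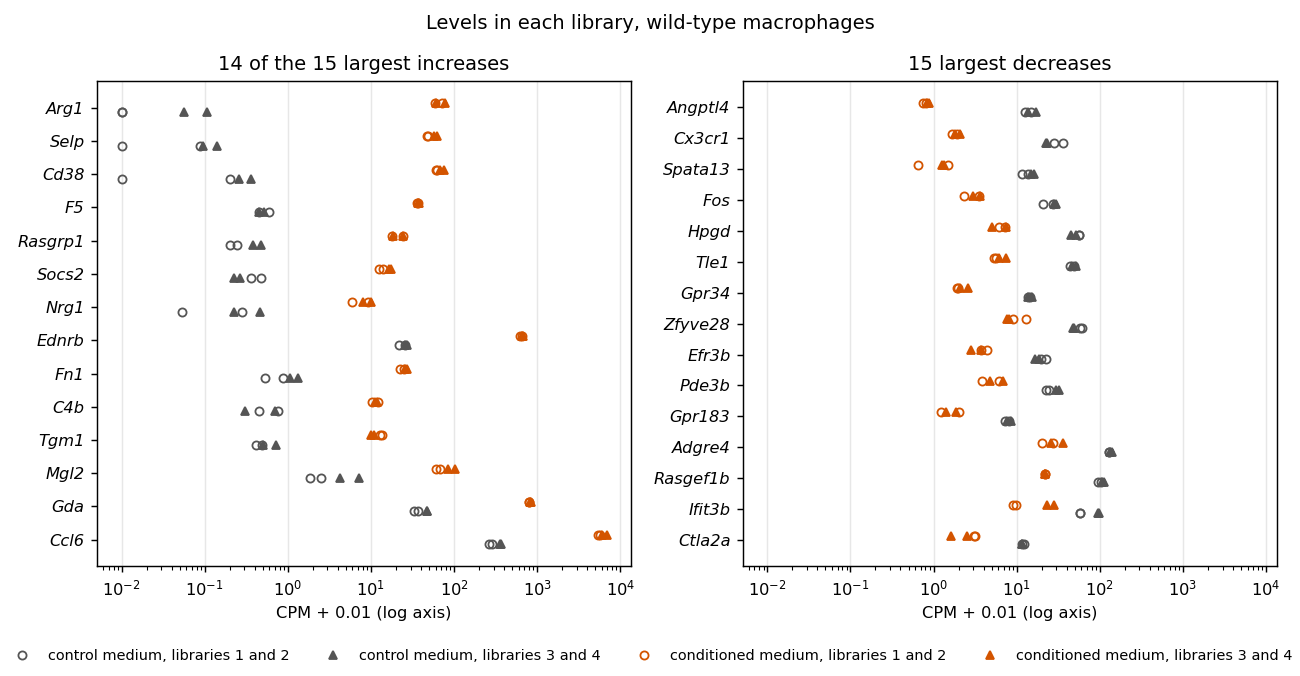
Level of 14 of the 15 most increased genes and of the 15 most decreased genes in every WT library, as CPM + 0.01 on a log axis, in control medium (grey) and CM (orange), with open circles for libraries 1 and 2 and triangles for 3 and 4. The media are apart for each gene because the ranking required it. Arg1 was at 0 in control libraries 1 and 2.

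The largest decreases included genes of lipid handling and of tissue-resident macrophages. Angptl4, a secreted inhibitor of lipoprotein lipase and a target of PPAR receptors, was at 12.7, 14.7, 17.3 and 13.7 CPM in control medium and 0.792, 0.745, 0.832 and 0.866 CPM in CM (-4.18 ± 0.12, edgeR adjusted p = 1.33e-12). Cx3cr1, the fractalkine receptor, was at 36.4, 28, 23.2 and 22.4 CPM in control medium and 1.88, 1.64, 2.05 and 1.8 CPM in CM (-3.84 ± 0.13). Fos, a subunit of the AP-1 transcription factor, was at 27.2, 20.9, 28 and 29.8 CPM in control medium and 2.3, 3.47, 3 and 3.59 CPM in CM (-3.09 ± 0.11). As the rule of this ranking required, every CM library lay below every control library for these 3 genes. Hpgd, which inactivates prostaglandins, changed by -3.02 ± 0.097 and Tle1, a corepressor of transcription, by -2.95 ± 0.076. The lysophosphatidylserine receptor Gpr34 (-2.73), the oxysterol receptor Gpr183 (-2.28), the adhesion receptor Adgre4 (-2.27) and the phosphodiesterase Pde3b (-2.32) were also in this set, with Spata13 (-3.59), Zfyve28 (-2.53), Efr3b (-2.40), Rasgef1b (-2.24), Ifit3b (-2.22) and Ctla2a (-2.22). Ctla2a and Ifit3b have close relatives, so their counts may be shared with them.

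Chemokines that attract monocytes were higher in CM. Of 22 tested CC and CXC chemokines, 14 rose, 12 of them 2-fold or more, and 3 fell (median 1.36). Ccl6, a chemokine of myeloid cells, was at 267, 283, 366 and 360.4 CPM in control medium and 5344, 5663, 6074 and 6864 CPM in CM (4.24 ± 0.052, edgeR adjusted p = 4.28e-16). Ccl2, the main ligand of Ccr2, was at 2.83, 2.75, 2.36 and 3.5 CPM in control medium and 31.1, 35, 28.1 and 35.3 CPM in CM (3.49 ± 0.11). The neighbouring ligands Ccl7 (3.80 ± 0.23), Ccl12 (2.76 ± 0.13) and Ccl8 (3.84 ± 0.30) also rose. Ccl9 was at 621 ± 35.2 CPM in control medium and 1674 ± 57 CPM in CM (1.43 ± 0.031), and Pf4 and Ppbp, chemokines first known from platelets, rose by 1.61 ± 0.11 and 2.33 ± 0.28. Cxcl16, a scavenger receptor and ligand of Cxcr6, changed by -1.29 ± 0.057, and with Cxcl9 and Cxcl10 makes up the called decreases.

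Among 17 chemokine and chemoattractant receptors, 4 rose and 7 fell. Ccr1 was at 5.07, 3.84, 4.85 and 6.16 CPM in control medium and 73.9, 82.9, 69.4 and 85.3 CPM in CM (3.96 ± 0.11, edgeR adjusted p = 1.01e-12), and Ccr2, the receptor of Ccl2, at 33.7, 33.8, 44.7 and 40.7 CPM in control medium and 117, 105, 157 and 146 CPM in CM (1.77 ± 0.049). Gpr35 (2.10 ± 0.12) also rose, while Cxcr4 (-1.30 ± 0.06), Ccr3 (-1.91 ± 0.14) and S1pr1 (-0.83 ± 0.046) fell with Cx3cr1. Thus the receptor of Ccl2 was higher, and the receptors of fractalkine and of Cxcl12 (Cxcr4) were lower. The complement peptide receptors C3ar1 (-0.34 ± 0.037) and C5ar1 (-0.10 ± 0.037) fell by less, and C5ar1 was no longer called in libraries 1 and 2 alone or without control library 1 or 3 or CM library 2 or 4.

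Feedback genes of JAK-STAT signalling were among the stronger increases. Of 18 tested members, 8 rose, 7 of them 2-fold or more, and 5 fell. Cish, an inhibitor of STAT5 signalling, was at 0.301, 0.31, 0.277 and 0.413 CPM in control medium and 5.52, 4.6, 4.29 and 4.15 CPM in CM (3.78 ± 0.17, edgeR adjusted p = 1.45e-10), and Socs2, of the same family, at 0.472, 0.349, 0.253 and 0.212 CPM in control medium and 12.7, 13.9, 16.4 and 17.6 CPM in CM. Pim1, a survival kinase induced by STATs, was at 28.1, 30.5, 37.5 and 37.9 CPM in control medium and 124, 123, 142 and 139.7 CPM in CM (1.99 ± 0.045). All 3 were higher in each CM library than in any control library. Ccnd1, which encodes cyclin D1, changed by -1.62 ± 0.10 while cyclin D2 (Ccnd2) rose by 1.05 ± 0.098. The repressor Bcl6 (-1.55 ± 0.078) and the survival gene Bcl2 (-1.06 ± 0.20) fell.

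Of 26 cytokine receptor genes, 9 rose and 14 fell (median -0.14). Besides Il4ra, Il21r (1.02 ± 0.052), Il1rl2 (1.68 ± 0.13), Csf2rb (0.64 ± 0.031) and Lifr (0.65 ± 0.037) rose. Csf1r changed by -0.45 ± 0.042, and Il7r, the interleukin 7 receptor, was at 185, 165, 247 and 247 CPM in control medium and 68.2, 70.5, 85.4 and 80.2 CPM in CM (-1.46 ± 0.053). Il10ra (-0.69 ± 0.045) and Il17ra (-0.77 ± 0.058) also fell. Without the library set term, 6 receptors rose and 9 fell.

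Growth factor genes went both ways, with 11 of 18 higher and 6 lower. Vegfa, the main angiogenic ligand, was at 69.7, 70.5, 83.2 and 82.6 CPM in control medium and 109, 106, 119 and 129 CPM in CM (0.60 ± 0.036, edgeR adjusted p = 4.52e-09), with Vegfb (0.72 ± 0.049) and Pgf (2.30 ± 0.45) also higher. Vegfc, which acts mainly on lymphatic vessels, changed by -3.04 ± 0.26. The platelet-derived growth factors Pdgfb (-1.67 ± 0.046) and Pdgfa (-0.87 ± 0.093) and Igf1 (-0.63 ± 0.037) fell. The 21 tested checkpoint and suppressive molecules comprised 11 increases and 8 decreases; by library totals alone, or without control library 1, both numbers were 9. Cd274, which encodes PD-L1, was at 38.9, 35.4, 39.9 and 40.0 CPM in control medium and 71.4, 72.1, 71.7 and 70.1 CPM in CM (0.89 ± 0.044), and Spp1, the secreted phosphoprotein osteopontin, at 1474, 1362, 1199 and 1236 CPM in control medium and 3753, 3518, 3332 and 3080.3 CPM in CM (1.38 ± 0.039). CM and control libraries did not overlap for either gene. Arg2, the mitochondrial arginase, rose by 2.12 ± 0.14. The inhibitory receptor Havcr2 (TIM-3) changed by -1.33 ± 0.063, the ATP-degrading enzyme Entpd1 (CD39) by -0.99 ± 0.057, and Il10 by -0.42 ± 0.13 (edgeR adjusted p = 0.0142). The Il10 call was lost without the set term (0.0977) and in libraries 3 and 4 alone, where the change was -0.19 (0.235).

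Rapidly inducible genes fell more often than they rose at 24 h in CM. Of 26 immediate early genes, 6 rose and 12 fell, 8 of them 2-fold or more (median -0.26). The nuclear receptor Nr4a1 was at 7.47, 5.97, 7.4 and 7.57 CPM in control medium and 0.768, 0.511, 0.689 and 0.817 CPM in CM (-3.35 ± 0.14, edgeR adjusted p = 6.19e-11). Egr1 (-2.02 ± 0.20), Egr3 (-2.44 ± 0.22), Fosb (-2.11 ± 0.26), Nr4a3 (-3.04 ± 0.43) and Atf3 (-1.15 ± 0.048) also fell. Klf4 (2.20 ± 0.069), Ier3 (1.44 ± 0.053), Fosl2 (0.80 ± 0.056), Klf2 (0.60 ± 0.057), Jun (0.49 ± 0.044) and Ier2 (0.21 ± 0.066) were the 6 that rose, though Ier2 was not called without control library 4 or CM library 3. Of 21 genes for ERK feedback and Ras regulation, 5 rose and 12 fell; in libraries 1 and 2 alone, 5 rose and 7 fell. The ERK phosphatases and feedback inhibitors that fell included Dusp1 (-1.34 ± 0.11), Dusp4 (-1.32 ± 0.11), Dusp5 (-1.21 ± 0.18), Dusp6 (-0.86 ± 0.13), Spred2 (-1.01 ± 0.12) and the ERK-responsive factor Etv5 (-1.11 ± 0.099). Spry1, another feedback inhibitor, rose by 3.28 ± 0.42 from a mean of 0.0632 CPM.

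Genes of the NF-kB pathway fell more often than they rose, 15 against 9 of 25, but by small amounts (median -0.21). Cd83, a surface marker of activated cells, was at 38.8, 38.5, 35.5 and 38.5 CPM in control medium and 12, 12.3, 13 and 11.8 CPM in CM (-1.62 ± 0.055, edgeR adjusted p = 8.68e-12). Sod2, the mitochondrial superoxide dismutase, rose by 1.13 ± 0.04, and the kinase Ikbke by 0.96 ± 0.038. Of 27 Toll-like receptor genes and adaptors, 13 rose and 11 fell, and by library totals alone the numbers were 11 and 12. The surface receptor Tlr4 was at 149, 136, 160.0 and 148 CPM in control medium and 305, 279, 315 and 306 CPM in CM (1.02 ± 0.043), while the endosomal receptors Tlr7 (-0.73 ± 0.056), Tlr8 (-0.57 ± 0.036), Tlr9 (-1.04 ± 0.055), Tlr13 (-0.29 ± 0.041) and Tlr3 (-0.31 ± 0.056) fell. Every CM library exceeded every control library for Tlr4.

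**Figure D3:**
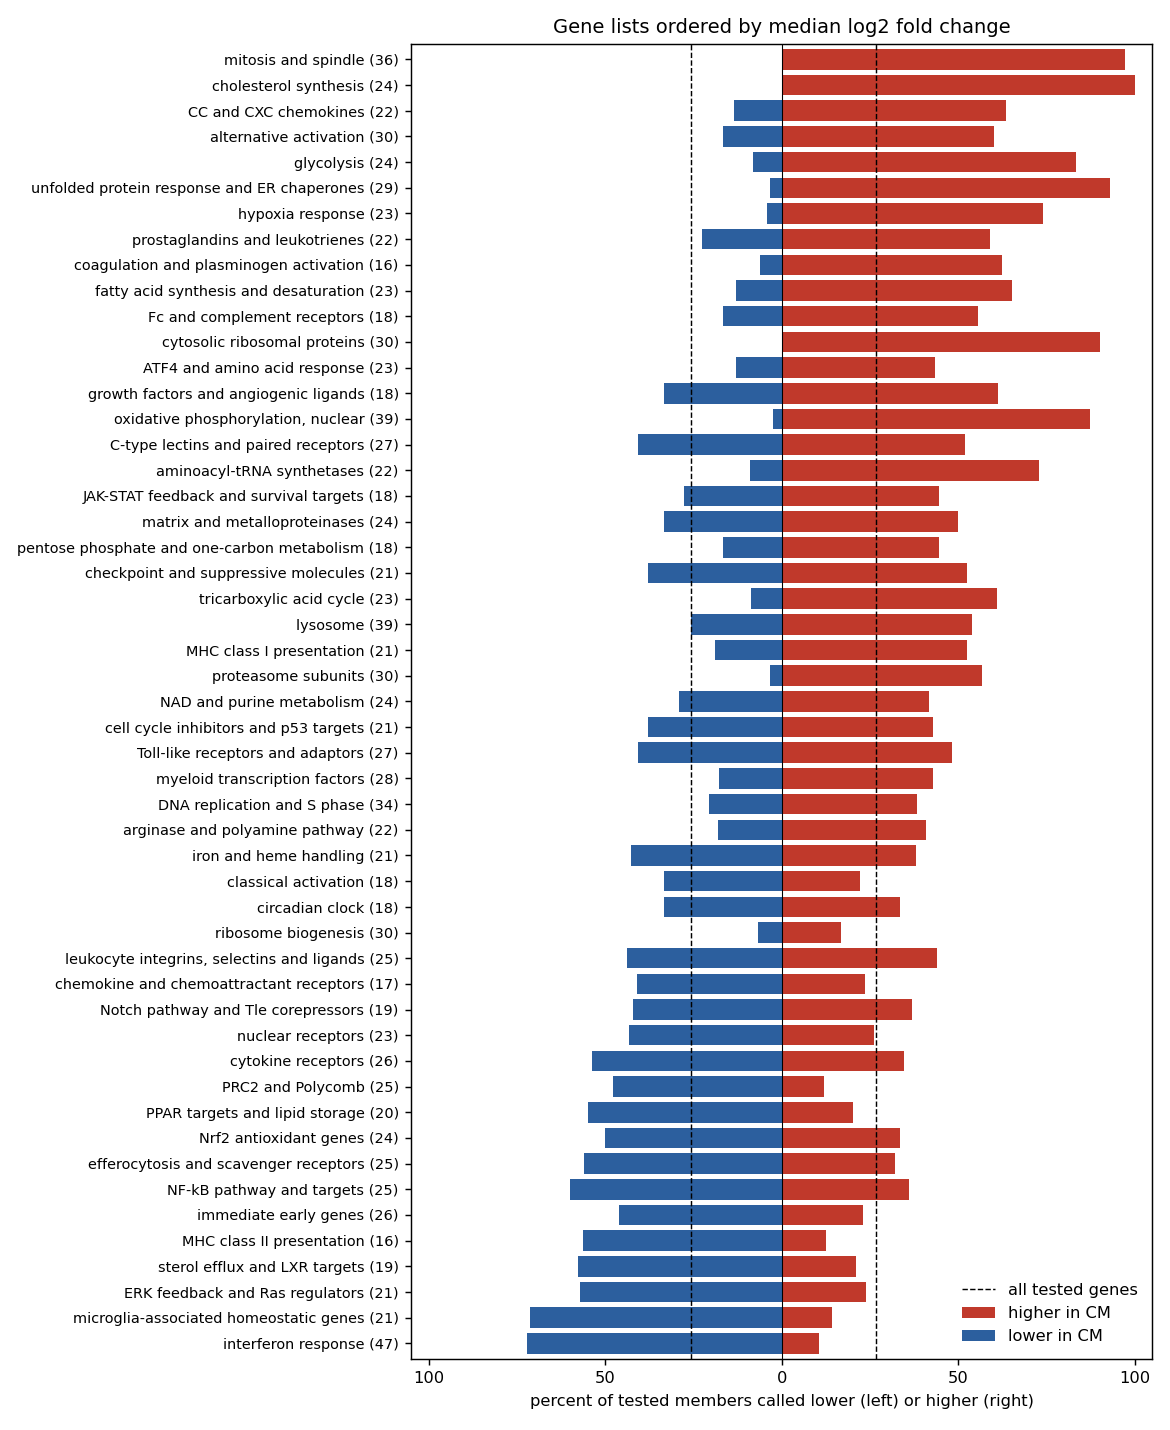
Share of tested members of each gene list called higher (red, right) or lower (blue, left) in CM, for lists with at least 15 tested members other than cell type markers, ordered by their median change, with the tested number in brackets. Dashed lines mark the shares of all tested genes, 26.6% higher and 25.7% lower; mitosis and cholesterol synthesis are at the top and interferon response at the bottom.

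Interferon-responsive genes were lower in CM. Of 47 tested members, 34 fell and 5 rose, with a median of -0.52. Irf7, which drives type I interferon genes, was at 188, 207, 172 and 154 CPM in control medium and 82.2, 80.5, 101 and 90.8 CPM in CM (-1.02 ± 0.084, edgeR adjusted p = 1.21e-07), and Ifit3, an antiviral effector, at 170.0, 163, 202 and 187 CPM in control medium and 36, 32.7, 73.5 and 54.8 CPM in CM (-1.92 ± 0.12). Each CM library lay below each control library for both. Rsad2, Mx1 and Oas3, further antiviral effectors, changed by -0.95 ± 0.098, -0.94 ± 0.12 and -0.91 ± 0.077. The 5 that rose were Gbp7 (1.05 ± 0.038), Ifi27l2a (1.04 ± 0.09), Gbp5 (0.44 ± 0.056), Gbp2 (0.27 ± 0.051) and Gbp3 (0.19 ± 0.044), of which 4 encode guanylate-binding proteins. Without the set term Gbp2 and Gbp3 were not called (edgeR adjusted p = 0.175 and 0.188), and in libraries 1 and 2 alone Gbp3 changed by 0.089 (0.322).

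The decreases were larger in libraries 1 and 2 than in 3 and 4 for Irf7 (-1.28 and -0.76) and Ifit3 (-2.28 and -1.60). A test of the difference between library sets did not pass for them (edgeR adjusted p = 0.099 and 0.207).

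RefSeq promoter windows (GRCm38.p6, the mm10 sequence) were read for list members, 250 bases before to 50 after each start. The interferon-stimulated response element, taken as GAAA, 2 bases of any kind and GAAA, lay on either strand in 25 of 43 windows of this list (35 of 47 genes matched), or 58.1%, against 3.44% of all 32851 windows. A match describes these letters only and is not a measured binding site. Stretches are shown for the called list members with the smallest p whose upstream bases hold the motif, with the motif in capitals, here as its reverse complement:
Gbp7: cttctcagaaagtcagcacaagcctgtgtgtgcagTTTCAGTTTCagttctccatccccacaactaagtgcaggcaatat
Ifit3b: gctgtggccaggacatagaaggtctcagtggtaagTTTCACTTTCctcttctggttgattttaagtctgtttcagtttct
They lie at chr3:142530248-142530327, plus strand, and chr19:34607734-34607813, plus strand. Only the first match of a stretch is in capitals, and the Ifit3b stretch holds another near its end in small letters. The Gbp7 promoter holds the motif although Gbp7 rose and Ifit3b fell. The 80 bases of Ifit3 that correspond to the Ifit3b stretch differ from it at 0 positions, so the pair has the same letters there.

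Antigen presentation on MHC class II was lower. Of 16 members, 9 fell, 6 of them 2-fold or more, and 2 rose. H2-Ab1, a beta chain of the class II molecule, was at 69.4, 80.6, 74.7 and 66.9 CPM in control medium and 22.9, 27.4, 26.6 and 23.4 CPM in CM (-1.53 ± 0.069, edgeR adjusted p = 1.49e-10). Ciita, the master transcriptional regulator of class II genes, was at 20.0, 20.2, 16.2 and 14.6 CPM in control medium and 6.19, 5.23, 4.04 and 3.45 CPM in CM (-1.93 ± 0.086). Its target Cd74, the invariant chain, was at 467, 517, 535 and 449.6 CPM in control medium and 215, 219, 245 and 233 CPM in CM (-1.11 ± 0.054). All 3 had lower values in every CM library than in any control library. H2-Aa (-1.40 ± 0.055) and H2-Eb1 (-1.46 ± 0.062) fell alike, whereas Ifi30, a lysosomal thiol reductase, rose by 0.84 ± 0.037, and Rfxank by 0.19 ± 0.057. The Rfxank call was lost by library totals alone, without the set term and in either library set alone.

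MHC class I genes changed little: 11 of 21 rose and 4 fell with a median of 0.13, and without the set term 4 rose and 1 fell. H2-D1, a classical class I heavy chain, was at 3989.6 ± 173 CPM in control medium and 3486 ± 111 CPM in CM (-0.20 ± 0.035), and B2m, its light chain, at 2949 ± 289 CPM in control medium and 3224 ± 184 CPM in CM (0.13 ± 0.032). Class I heavy chains are near-identical copies, so counts may be split among them.

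Cholesterol synthesis genes rose together. All 24 tested members were higher in CM, 17 of them 2-fold or more, with a median of 1.39. Insig1, which retains the SREBP activator in the ER when sterol is plentiful, was at 25.9, 25.4, 25 and 24.8 CPM in control medium and 104, 98.9, 102 and 99.6 CPM in CM (2.00 ± 0.038, edgeR adjusted p = 3.74e-14). Its media did not overlap. Along the pathway, Hmgcs1 (1.20), Mvd (2.07), Idi1 (2.04), Fdps (1.98), Sqle (1.62), Lss (1.26), Cyp51 (1.57) and Msmo1 (1.30) all rose, as did the transcription factor Srebf2 (1.01 ± 0.034). The smallest change was of Ebp, a sterol isomerase (0.26 ± 0.052, edgeR adjusted p = 0.000766). The letters TCACNCCAC, a form of the sterol regulatory element, were found in 1 of 20 windows of the list, that of Hmgcs1, against 1.24% of all windows.

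Fatty acid synthesis had 15 increases and 3 decreases among 23 genes. Scd2, a stearoyl-CoA desaturase, was at 9.64, 9.56, 10.2 and 12.4 CPM in control medium and 52.8, 53.5, 55.2 and 63.1 CPM in CM (2.42 ± 0.066, edgeR adjusted p = 1.18e-12), and Scd1 rose by 2.66 ± 0.12. Fatty acid synthase, Fasn (0.70 ± 0.051), ATP citrate lyase, Acly (0.58 ± 0.034), and acetyl-CoA carboxylase, Acaca (0.72 ± 0.058), rose by less than 2-fold. The exceptions were Agpat2 (-0.63 ± 0.09), Me1 (-0.82 ± 0.13) and Agpat3 (-0.15 ± 0.045), the last no longer called in libraries 1 and 2 alone, without the set term or without CM library 3.

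Sterol export and its LXR-dependent genes went the other way: 11 of 19 fell and 4 rose. Mylip, a ubiquitin ligase induced by LXR, was at 63.5, 65.4, 73 and 73.7 CPM in control medium and 19.9, 20.0, 20.1 and 19.4 CPM in CM (-1.80 ± 0.049, edgeR adjusted p = 1.2e-12). Apoe, an apolipoprotein secreted by macrophages, was at 2449, 2987, 3269 and 3133 CPM in control medium and 1485, 1731, 1798 and 1802 CPM in CM (-0.79 ± 0.058). The cholesterol exporters Abca1 (-0.42 ± 0.038) and Abcg1 (-0.21 ± 0.039), Pltp (-0.87 ± 0.036), Lpl (-0.86 ± 0.045) and the receptor Nr1h3 (-0.80 ± 0.096) also fell. Apoc2, an activator of lipoprotein lipase, rose by 1.24 ± 0.057. Among PPAR targets and lipid storage genes, 11 of 20 fell and 4 rose, with Angptl4, Cpt1a (-0.89 ± 0.035), which admits fatty acids into mitochondria, and Plin2 (-0.68 ± 0.032), a lipid droplet protein, lower and Fabp5 (0.77 ± 0.037) higher.

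Glycolysis genes were higher. Of 24 tested members, 20 rose, 6 of them 2-fold or more, and 2 fell (median 0.69). Pfkl, a phosphofructokinase, was at 51.2, 53.4, 42.8 and 43.3 CPM in control medium and 131, 130.2, 116 and 125 CPM in CM (1.41 ± 0.044, edgeR adjusted p = 3.68e-12). Ldha, which makes lactate, was at 321, 344, 296 and 300.4 CPM in control medium and 654, 615, 617 and 595 CPM in CM (0.98 ± 0.038), and Slc16a3, a lactate exporter, at 27.5, 30.5, 23.2 and 23.1 CPM in control medium and 66.1, 61, 60.8 and 63.3 CPM in CM (1.28 ± 0.062). CM and control libraries did not overlap for these. The glucose transporter Slc2a1 (1.00 ± 0.056), Pgam1 (1.11 ± 0.037), Eno1 (1.03 ± 0.035) and Gapdh (1.10 ± 0.039) rose as well; Pgam1, Eno1 and Gapdh have many processed copies in the genome, which may take part of their reads. The called decreases were Ldhb, the lactate dehydrogenase chain of oxidative tissues, at 5.37 ± 1.2 CPM in control medium and 2.61 ± 0.429 CPM in CM, and Pfkfb4 (-0.27 ± 0.042).

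Of 23 hypoxia-responsive genes, 17 rose and 1 fell (median 0.56). Bhlhe40, a transcriptional repressor, was at 8.61, 7.54, 8.53 and 8.47 CPM in control medium and 51.5, 47.1, 51.2 and 50.3 CPM in CM (2.59 ± 0.056, edgeR adjusted p = 1.03e-13). Hif1a, the oxygen-regulated subunit of HIF-1, was at 135, 127, 156 and 152 CPM in control medium and 283, 300.0, 291 and 338 CPM in CM (1.09 ± 0.049), and Epas1 (HIF-2 alpha) rose by 2.30 ± 0.098. Both HIF subunits were higher in each CM library. Pdk1 (0.56 ± 0.036), Ak4 (3.29 ± 0.23) and Egln3 (0.80 ± 0.14) rose, Mxi1 fell (-0.26 ± 0.04), and Kdm3a and Bnip3l did not pass (-0.006 and 0.019). The 5 letters ACGTG, the core of the hypoxia response element, lay in 56.2% of 32 windows of hypoxia genes and 46.2% of 39 windows of glycolysis genes, against 19.6% of all windows.

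Mitochondrial genes rose slightly. Nuclear genes of oxidative phosphorylation were higher in 34 of 39 cases with a median of only 0.22; without the set term 17 passed, all higher. Uqcrq, of complex III, rose by 0.67 ± 0.063, Cycs, cytochrome c, by 0.53 ± 0.049, and Atp5j, of ATP synthase, by 0.41 ± 0.034, while Sdhb, of complex II, changed by -0.16 ± 0.034. Of 23 tricarboxylic acid cycle genes 14 rose, 9 of them in libraries 1 and 2 alone, with Idh1 at 0.65 ± 0.048 and Acod1, which makes itaconate, at 0.95 ± 0.15.

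In the arginase and polyamine pathway 9 of 22 genes rose and 4 fell. Beside Arg1 and Arg2, the arginine transporter Slc7a2 rose by 0.94 ± 0.095 and Odc1, which makes putrescine, by 0.55 ± 0.064. Glul, glutamine synthetase, changed by -0.52 ± 0.032. Of genes for NAD and purine metabolism, 10 of 24 rose and 7 fell, with the Cd38 relative Bst1 at 21.2, 20.2, 18.4 and 20.0 CPM in control medium and 164, 163, 125 and 141 CPM in CM (2.88 ± 0.054, edgeR adjusted p = 3.74e-14).

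Stress pathways differed from each other. Of 23 genes of the ATF4 and amino acid response, 10 rose and 3 fell, led by Nupr1 (1.85 ± 0.061), Atf5 (1.45 ± 0.05), Cebpb (1.35 ± 0.062) and the amino acid transporter Slc7a5 (2.02 ± 0.21). Asns and Trib3, 2 usual ATF4 targets, did not pass (0.17 ± 0.10 and -0.071 ± 0.16). Of 24 Nrf2 antioxidant genes, 12 fell and 8 rose. Sod1, the cytosolic superoxide dismutase, was at 323, 344, 399 and 387 CPM in control medium and 175, 189, 223 and 224 CPM in CM (-0.84 ± 0.037, edgeR adjusted p = 1.23e-10), and Cat, catalase, changed by -0.76 ± 0.034. Glutathione reductase, Gsr (1.06 ± 0.039), and thioredoxin, Txn1 (0.76 ± 0.041), rose, and the Nrf2 targets Gclc (-0.74 ± 0.063) and Osgin1 (-0.75 ± 0.06) fell. Cp, ceruloplasmin, a ferroxidase, was at 15.6, 17.8, 19.8 and 17 CPM in control medium and 114, 104, 158 and 150.1 CPM in CM (2.90 ± 0.077), while Trf (-0.72 ± 0.037) and Blvrb (-0.42 ± 0.043) fell. The iron list held 8 increases and 9 decreases among 21.

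ER chaperones and genes of the unfolded protein response rose together, each by less than 2-fold. Of 29 tested members, 27 rose and 1 fell (median 0.60). Hspa5, the chief ER chaperone BiP, was at 701, 688, 722 and 732 CPM in control medium and 1047, 1019, 1068 and 1058 CPM in CM (0.56 ± 0.03, edgeR adjusted p = 1.07e-09). Pdia6, a disulfide isomerase, was at 182, 191, 194 and 194 CPM in control medium and 344, 357, 328 and 337 CPM in CM (0.84 ± 0.038), and Hsp90b1 at 779, 784, 879 and 867 CPM in control medium and 1339, 1377, 1368 and 1454 CPM in CM (0.74 ± 0.035). Control and CM libraries were apart for these. The secreted factor Manf (1.00 ± 0.053), the sensor Ern1 (0.68 ± 0.036), its splicing target Xbp1 (0.65 ± 0.046), Pdia4 (0.88 ± 0.035) and Hyou1 (0.70 ± 0.035) rose. Atf6, another sensor, changed by -0.16 ± 0.033 (edgeR adjusted p = 0.000684, and 0.0927 without the set term). Ddit3, the proapoptotic factor of the ATF4 list, did not pass (0.10 ± 0.074).

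The ER stress element, taken as CCAAT, 9 bases of any kind and CCACG, was present on either strand in 9 of 26 windows of this list (25 of 29 genes matched), or 34.6%, against 39 of 32851 windows overall (0.119%). The genes were Calr, Canx, Creld2, Derl3, Dnajc3, Hsp90b1, Hspa5, Pdia6 and Syvn1, of which all but Derl3 rose. The upstream stretches of the pair with the smallest p are shown with the element in capitals:
Pdia6: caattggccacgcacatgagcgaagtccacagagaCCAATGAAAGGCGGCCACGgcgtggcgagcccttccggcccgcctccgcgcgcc
Hsp90b1: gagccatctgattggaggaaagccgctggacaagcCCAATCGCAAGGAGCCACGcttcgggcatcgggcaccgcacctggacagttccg
They lie at chr12:17266456-17266544, plus strand, and chr10:86705603-86705691, minus strand.

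Lysosomal genes were among the most abundant to change. Of 39 members, 21 rose and 10 fell (median 0.15). Ctsl, a cysteine protease, was at 1916, 1849, 1805 and 1828 CPM in control medium and 4030.4, 4044, 4009 and 3981 CPM in CM (1.12 ± 0.029, edgeR adjusted p = 8.23e-13). Psap, the precursor of sphingolipid activator proteins, was at 20178, 20974, 20657 and 21191 CPM in control medium and 36399.8, 36719, 38190.3 and 38104 CPM in CM (0.85 ± 0.026), and Ctsd, an aspartic protease, at 8414, 8458, 7955 and 8386 CPM in control medium and 15515, 15717, 15132 and 15914 CPM in CM (0.91 ± 0.03). CM libraries exceeded all control libraries for these. Ctsc (1.18 ± 0.033), Ctsb (0.54 ± 0.027), Ctsz (0.67 ± 0.036) and Lamp1 (0.64 ± 0.031) also rose, while Ctss (-0.26 ± 0.04), Ctsh (-0.24 ± 0.041), Lipa (-0.31 ± 0.044) and the lysosomal regulator Tfe3 (-0.26 ± 0.039) fell. The element TCACGTGA lay in 6 of 36 windows of the list, or 16.7%, against 0.974% of all windows.

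As counts per kilobase of exon and per M of library total, the largest shifts in level among ranked genes were of abundant genes, several of them lysosomal. Psap rose from 6642 ± 141 to 11957 ± 297, Ctsd from 4331 ± 122 to 8122 ± 174, Ctsb from 3097 ± 167 to 4511 ± 312 and Ftl1, ferritin light chain, from 7179 ± 607 to 7913 ± 1045 (mean ± SD of control medium to that of CM, n = 4). The other largest rises were of Tpt1 (0.33), Lamp1 (0.64), Ccl6 (4.24) and Ctsl (1.12) on the log2 scale. Levels fell for Ctss from 5905 ± 589 to 4937 ± 661, Cst3, a cysteine protease inhibitor, from 1831 ± 102 to 1185 ± 30.2, Apoe from 1792 ± 218 to 1031 ± 90.6 and Pltp, a phospholipid transfer protein, from 1760.3 ± 38.5 to 965 ± 60.1. Ferritin light chain and Tpt1 have many processed copies, so their levels are uncertain. The Ftl1 call was lost by library totals alone (0.056, edgeR adjusted p = 0.132), without the set term (0.14, 0.312) and in libraries 1 and 2 alone (0.072, 0.255).

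Genes of protein synthesis and turnover differed by list. Cytosolic ribosomal protein genes were higher in 27 of 30 cases, with a median of 0.28 and a largest change of 0.48 ± 0.034 for Rps6; without the set term 12 passed. These genes also have many processed copies. Of 30 ribosome biogenesis genes, 5 rose and 2 fell, fewer than the background, and by library totals alone 3 rose and 11 fell. Of 22 tRNA synthetase genes and cofactors 16 rose, or 10 without the set term and 10 in libraries 1 and 2 alone, led by Wars (1.43 ± 0.051). Proteasome subunits rose in 17 of 30 cases with a median of 0.12, and in 7 without the set term, 8 by library totals alone and 9 in libraries 1 and 2 alone.

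Mitosis genes were higher in CM. Of 36 genes of mitosis and the spindle, 35 rose, 28 of them 2-fold or more, and the median was 1.45; Kif23 did not pass (0.15 ± 0.071). Ccnb2, a B-type cyclin, was at 9.38, 9.56, 6.57 and 8.08 CPM in control medium and 40.7, 49.9, 32.3 and 33.2 CPM in CM (2.21 ± 0.078, edgeR adjusted p = 1.24e-11). Mki67, the Ki-67 antigen, was at 30.7, 25.4, 29.3 and 31.3 CPM in control medium and 88.6, 103, 82.9 and 94.7 CPM in CM (1.66 ± 0.073), and Cdc20, an activator of the anaphase-promoting complex, at 5.78, 5.31, 4.61 and 5.24 CPM in control medium and 20.5, 25.3, 17.4 and 19.6 CPM in CM (1.98 ± 0.087). Each CM library exceeded each control library. In RNA from whole cultures, more dividing cells and more RNA of these genes per cell cannot be told apart, and the same holds for every level reported here.

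S phase genes were divided. Of 34 DNA replication genes, 13 rose and 7 fell, none by 2-fold, with a median of 0.056. By the most-counted exon of each gene alone, 5 rose and 6 fell, without the set term 8 and 4, and in libraries 1 and 2 alone 7 and 5. Mcm6, a subunit of the replicative helicase, was at 74.3, 71.7, 72.3 and 76.6 CPM in control medium and 42, 42, 47.8 and 48 CPM in CM (-0.71 ± 0.043, edgeR adjusted p = 4.33e-09), and Pcna, the polymerase clamp, at 152, 138, 161 and 171 CPM in control medium and 103, 111, 119.8 and 122 CPM in CM (-0.45 ± 0.04). Both were lower in each CM library than in any control library, while Rrm1, a ribonucleotide reductase subunit, rose by 0.34 ± 0.045. Mcm2 and Mcm4 did not pass (0.014 and -0.002). Of cell cycle inhibitors and p53 targets, 9 of 21 rose and 8 fell; the inhibitor Cdkn2d (1.55 ± 0.083) rose, Cdkn1c (-1.88 ± 0.16) fell, and Cdkn1a (p21) did not pass (0.092 ± 0.042).

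The element TTTGAA, known as the cell cycle genes homology region, lay in 27 of 34 windows of mitosis genes (32 of 36 genes matched), or 79.4%, against 17.9% of all windows. The stretches around the first match are shown for the most significant members whose upstream bases hold it:
Ccnb2: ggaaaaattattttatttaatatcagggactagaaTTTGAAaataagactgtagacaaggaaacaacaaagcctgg
Mki67: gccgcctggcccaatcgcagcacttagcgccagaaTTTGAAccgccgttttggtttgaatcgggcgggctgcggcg
The capitals mark the first TTTGAA, and the Mki67 stretch holds another in small letters. The stretches lie at chr9:70421681-70421756, minus strand, and chr7:135716455-135716530, minus strand.

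**Figure D4:**
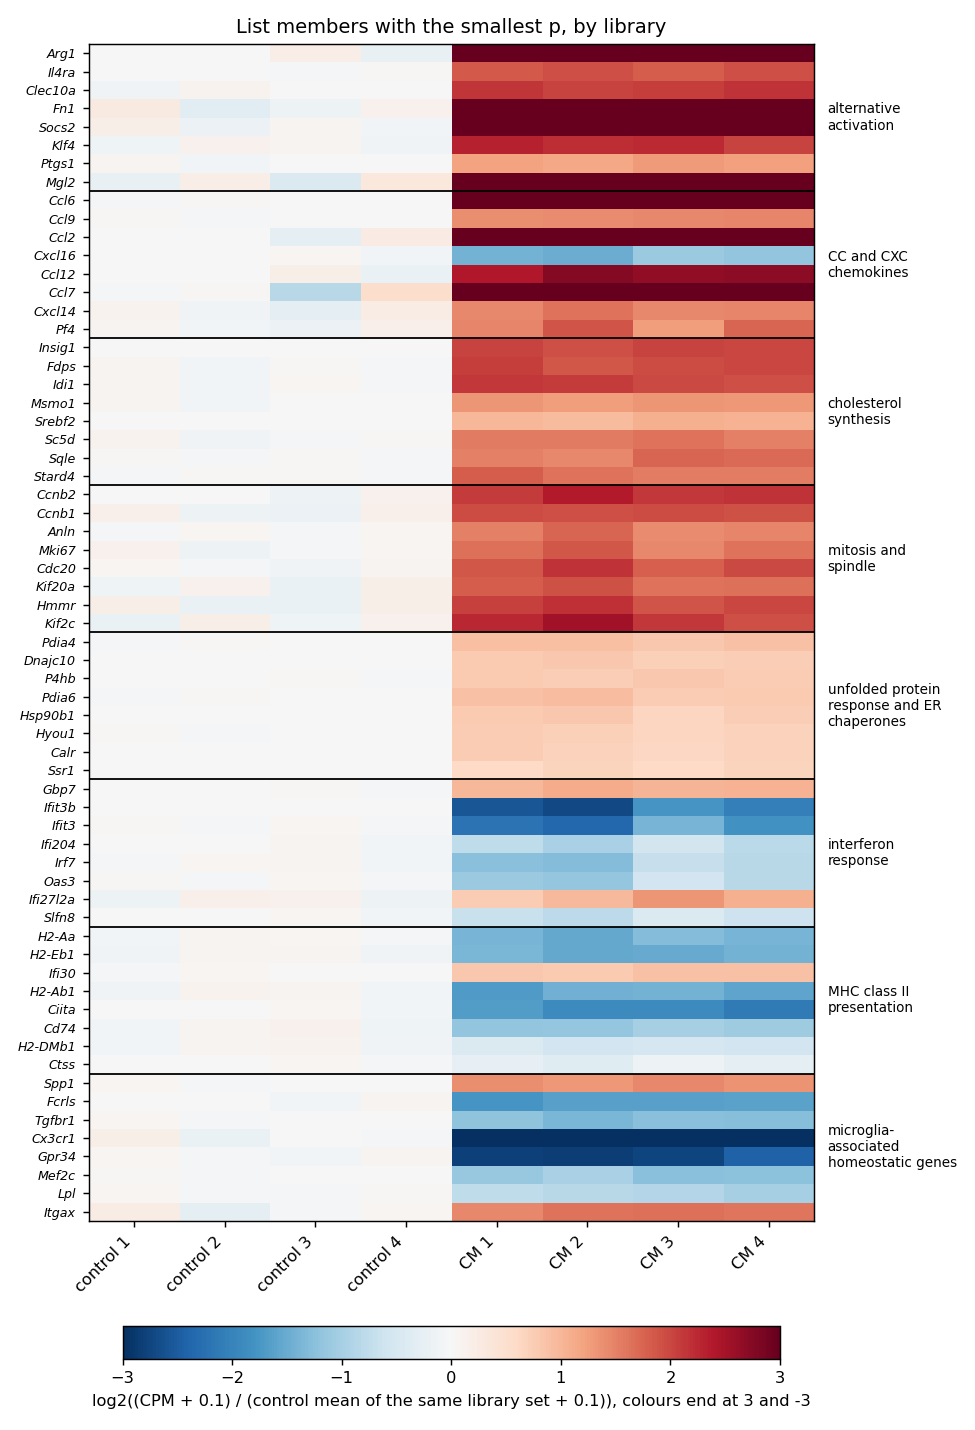
Heat map of 8 members with the smallest p among those reported in each of 8 lists (rows) by library (columns), as log2 of CPM + 0.1 over the mean of the control libraries of the same set + 0.1, with colours ending at 3 and -3. The 4 CM libraries share their direction for each gene shown, which the choice by p favours. The 6 interferon genes that fell are palest in CM library 3.

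On the cell surface, Fc and complement receptors rose in 10 of 18 cases and fell in 3 (median 0.31). Itgam, the CD11b chain of complement receptor 3, was at 1252, 1179.7, 1187 and 1188 CPM in control medium and 3028, 2950.2, 2857 and 2989.8 CPM in CM (1.30 ± 0.032, edgeR adjusted p = 4.93e-13), and Fcgr2b, the inhibitory IgG receptor, at 83.6, 96.3, 91.5 and 103 CPM in control medium and 342, 377, 344 and 359 CPM in CM (1.93 ± 0.056). Control and CM libraries were apart for both. Itgax (1.59 ± 0.083), Fcgr4 (1.26 ± 0.036) and Cfp (1.32 ± 0.041), which stabilises the complement convertase, also rose. Of 14 complement genes, 6 rose, among them C4b (4.42 ± 0.18) and C1ra (1.44 ± 0.086), and 3 fell, among them C1qa (-0.45 ± 0.056). C3, the central component, changed by -0.37 ± 0.10 (edgeR adjusted p = 0.00774), but by -0.12 without passing in libraries 3 and 4 alone (adjusted p = 0.37).

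Genes associated with homeostatic microglia, many of which macrophages share, fell in 15 of 21 cases and rose in 3 (median -0.45). Fcrls, an Fc receptor-like protein, was at 67.3, 67.4, 58.1 and 64.4 CPM in control medium and 19.7, 21.9, 19.8 and 20.0 CPM in CM (-1.66 ± 0.05, edgeR adjusted p = 3.05e-12). Mef2c, a transcription factor, was at 220.2, 209, 276 and 281 CPM in control medium and 97.9, 108, 118 and 119.6 CPM in CM (-1.15 ± 0.045), and Tgfbr1, a TGF-beta receptor, at 156, 144, 153 and 157 CPM in control medium and 64.8, 58, 64.6 and 63.4 CPM in CM (-1.28 ± 0.042). Together with Cx3cr1 and Gpr34, these were lower in each CM library. Spp1, Itgax and Cst7 (0.75 ± 0.20), known from activated microglia, were the 3 that rose. Cst7 was not called in libraries 1 and 2 alone.

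Of 25 genes for efferocytosis and scavenging, 14 fell and 8 rose. Cd300a (-0.60 ± 0.031), Itgb5 (-0.69 ± 0.036), Itgav (-0.68 ± 0.04), Lrp1 (-0.47 ± 0.037) and Axl (-0.47 ± 0.054) fell, while the scavenger receptor Msr1 was at 85.2, 77.6, 91.7 and 99.9 CPM in control medium and 151, 164, 151 and 169.7 CPM in CM (0.85 ± 0.056, edgeR adjusted p = 1.11e-08). The bridging ligand Gas6 (0.47 ± 0.035) and the receptor Tyro3 (5.11 ± 0.63) rose, Tyro3 from a mean of 0.0237 CPM. Of the integrins, selectins and ligands, 11 of 25 rose and 11 fell. Itgal, the CD11a chain of LFA-1, was at 150.2, 146, 115 and 108 CPM in control medium and 32.8, 33.8, 26.4 and 29.8 CPM in CM (-2.07 ± 0.05), opposite to Itgam, which shares its beta chain. C-type lectins and paired receptors were also divided, 14 up and 11 down of 27, with Cd300c2 (-1.01 ± 0.037), Clec12a (-0.93 ± 0.039) and Clec4a1 (-1.01 ± 0.054) lower.

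Coagulation genes were mostly higher, with 10 of 16 that rose and 1 that fell. F10, coagulation factor X, was at 8.33, 6.69, 8.44 and 6.84 CPM in control medium and 52.8, 53, 64 and 60.2 CPM in CM (2.93 ± 0.079, edgeR adjusted p = 1.05e-12), and F7, factor VII, at 4.06, 4.25, 3.31 and 2.82 CPM in control medium and 32.5, 28.9, 25.1 and 22.6 CPM in CM (2.92 ± 0.078). CM libraries were all higher for both. The urokinase receptor Plaur rose by 1.22 ± 0.044, and Procr, the protein C receptor, changed by -0.78 ± 0.12. Among matrix genes and metalloproteinases, 12 of 24 rose and 8 fell. Vcan, the proteoglycan versican, was at 5.45, 5.97, 5.89 and 5.01 CPM in control medium and 38, 34.8, 35.4 and 42.4 CPM in CM (2.76 ± 0.08). Mmp8 (1.74 ± 0.078), Mmp12 (0.87 ± 0.075), Mmp19 (1.22 ± 0.045) and Timp1 (2.04 ± 0.28) rose, and Mmp13 (-1.41 ± 0.073) and Adam8 (-1.26 ± 0.045) fell.

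Of 22 genes for prostaglandins and leukotrienes, 13 rose and 5 fell. Ptgs1, cyclooxygenase 1, was at 115, 103, 92.4 and 90.7 CPM in control medium and 250.4, 245, 223 and 214 CPM in CM (1.22 ± 0.039, edgeR adjusted p = 5.55e-12), and Ltc4s, leukotriene C4 synthase, at 17.3, 15.3, 12.4 and 12.2 CPM in control medium and 56.1, 65.6, 52.5 and 48.9 CPM in CM (1.97 ± 0.064). Neither overlapped between media. Tbxas1 (0.93 ± 0.036), Cysltr1 (1.02 ± 0.063) and Ptger4 (0.70 ± 0.056) rose as well. Besides Hpgd, Alox5 (-1.09 ± 0.08), Ptger3 (-2.51 ± 0.17) and Pla2g7 (-1.09 ± 0.089) fell, and Ptgs2, the inducible cyclooxygenase, did not pass at 0.592 ± 0.151 CPM in control medium and 0.561 ± 0.403 CPM in CM.

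Among regulators, Rbpj, the DNA-binding partner of Notch, was at 145, 129, 156 and 148 CPM in control medium and 447, 419.9, 448 and 449 CPM in CM (1.61 ± 0.044, edgeR adjusted p = 1.13e-12), and the corepressor Tle3 at 120.2, 125, 124 and 120.3 CPM in control medium and 231, 231, 243 and 241 CPM in CM (0.95 ± 0.033). The Notch ligands Jag1 (-1.58 ± 0.097) and Jag2 (-1.32 ± 0.12) and the receptor Notch4 (-2.21 ± 0.22) fell, and Notch1 did not pass (-0.12 ± 0.051). The list held 7 increases and 8 decreases among 19, an order that turned in 6 of the alternative fits. Of 28 myeloid transcription factors 12 rose, led by Klf4 (2.20 ± 0.069), Nfil3 (1.41 ± 0.062), Cebpb (1.35 ± 0.062) and Batf3 (1.14 ± 0.24), and 5 fell, led by Mef2c; Spi1 (PU.1), which defines the lineage, was at 253 ± 11.3 CPM in control medium and 245 ± 8.61 CPM in CM and did not pass. Of 23 nuclear receptors 10 fell and 6 rose, among the latter the vitamin D receptor Vdr (2.49 ± 0.24). The clock gene Arntl changed by -0.66 ± 0.051, and its list held 6 increases and 6 decreases among 18.

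Polycomb genes fell more often than they rose: 12 of 25 fell, or 7 in libraries 1 and 2 alone, and 3 rose. Ezh2, the methyltransferase of the complex, was at 19.5, 21.4, 26 and 24.2 CPM in control medium and 31, 37.3, 34.6 and 38 CPM in CM (0.63 ± 0.069, edgeR adjusted p = 2.61e-06). Phf19, an accessory subunit, rose by 1.21 ± 0.12, and Kdm6b, an H3K27 demethylase, by 0.39 ± 0.073. The core subunits Eed and Suz12 did not pass (-0.11 ± 0.052 and -0.057 ± 0.041). Cbx7 (-0.58 ± 0.063), Rbbp7 (-0.32 ± 0.039) and Aebp2 (-0.30 ± 0.038) fell.

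Of 24 tested core macrophage markers, 7 rose, 3 of them 2-fold or more, and 10 fell, 1 of them 2-fold or more. In libraries 1 and 2 alone Adgre1 changed by -0.74 and Aif1 by -1.59. In libraries 3 and 4 alone Adgre1 changed by -0.64 and Aif1 by -1.65. Markers of other cell types were measured because a culture can hold them. Alb, the defining hepatocyte gene, had 0 counts in all 8 libraries, and Ttr and Apoa1 had 3 and 12 counts in control medium and 0 in CM. Afp had 448 counts in control medium and 541 in CM, and its call was lost without control library 1 or 4 or CM library 1, 2 or 4. Of 4 tested hepatocyte and hepatoma markers, 2 rose (Afp and Ambp) and 1 fell. Ambp had 12 counts in control medium and 114 in CM (edgeR adjusted p = 0.000134). It rose by 4.09 in libraries 1 and 2 alone and by 2.65 in libraries 3 and 4 alone. The summed level of the list was 717 to 784 CPM in control medium and 438 to 478 CPM in CM. Most of it was transferrin (Trf), at 742 ± 29.8 CPM in control medium and 451 ± 18.5 CPM in CM. Fibroblast and stromal markers summed to 2.15 to 4.32 CPM in control medium and 1.61 to 2.7 CPM in CM, with 1 of 5 tested members lower. Lymphocyte markers summed to 2.19 to 3.65 CPM in control medium and 1.62 to 2.87 CPM in CM and erythroid markers to 16.6 to 18.7 CPM in control medium and 14.8 to 17.7 CPM in CM.

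Monocyte markers rose in 7 of 15 cases, 6 of them 2-fold or more, among them Ccr2, Fn1, Vcan, Hp (3.63 ± 0.13) and Plac8 (3.52 ± 0.33). They fell in 3 cases, 2 of them 2-fold or more, among them Ace (-1.39, edgeR adjusted p = 0.0012) and S100a6 (-0.12, 0.0326). In libraries 1 and 2 alone neither Ace (-1.05, 0.112) nor S100a6 (-0.15, 0.0694) was called. Ly6c2, a defining marker of inflammatory monocytes, had 99 counts in control medium and 43 in CM, and Chil3 did not pass. The monocyte markers summed to 889.5 to 1135 CPM in control medium and 1100.0 to 1257 CPM in CM. Megakaryocyte and platelet markers rose in 7 of 11 cases, led by Selp, F5, Pf4 and Ppbp. They summed to 423 to 499 CPM in control medium and 747 to 839 CPM in CM. The 1 that fell was Gp1ba (-0.50, edgeR adjusted p = 0.00419), which was not called in libraries 1 and 2 alone (-0.44, 0.151). The platelet-defining integrin Itga2b had 46 counts in control medium and 49 in CM (0.24 ± 0.51, edgeR adjusted p = 0.73), and Gp9 had 1 and 2. Neutrophil and granulocyte precursor markers summed to 81.6 to 101 CPM in control medium and 129.5 to 146 CPM in CM, with 4 of 10 tested members higher and 2 lower. Prtn3 went from 3 to 817 counts, a ratio of 293 (95% counting interval 99.8 to 1423), Elane from 3 to 44, and Mpo from 0 to 1. These precursor genes hold only a small part of the sum and of its rise. S100a8 had 143 counts in control medium and 96 in CM and did not pass, and Ngp (-2.50 ± 0.49) and Ltf (-1.29 ± 0.45) fell. The Ltf call was lost without control library 2 or 4 or CM library 2, 3 or 4. The part of such cells in the results above was not tested. Dendritic cell markers summed to 128 to 196 CPM in control medium and 144 to 189 CPM in CM, with 3 of 10 higher and 2 lower, among the latter Siglech, which had 92 counts in control medium and 4 in CM. Endothelial markers summed to 244 to 338 CPM in control medium and 366 to 467 CPM in CM, without overlap, most of it Vwf and Eng: Selp and Vwf (0.61 ± 0.04) rose, Kdr (-0.29 ± 0.079) and Eng (-0.49 ± 0.043) fell, and the defining Pecam1 and Cdh5 had 121 and 57 counts in control medium and 59 and 84 in CM and did not pass. Emcn and Cldn5 had 0 counts. Of the mast cell and basophil markers, 9 of 14 had 0 counts in all libraries, and Cpa3 (59 counts in control medium and 129 in CM) rose (1.21, edgeR adjusted p = 0.00998), a call lost without the set term (0.052) and in libraries 1 and 2 alone (0.473, 0.508).

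For most called genes the response had the same sign in each library set. Of 6799 called genes that could be tested in each set, 6792 had the same sign in libraries 1 and 2 alone and in libraries 3 and 4 alone, and these libraries are the ones that gave the calls. Of the 1006 genes changed 2-fold or more, 966 could be tested in each set, and 827 were called with the same sign in each set. The response differed between sets for 3 genes (0.0229% of those tested). H2-Q7, a nonclassical MHC class I gene, was at 8.52, 6.96, 38.7 and 36.9 CPM in control libraries 1 to 4 and at 25.9, 28.9, 33.3 and 35.2 CPM in CM libraries 1 to 4. It rose by 1.82 in libraries 1 and 2 and changed by -0.14 in 3 and 4 (difference -1.97 ± 0.13, edgeR adjusted p = 5.74e-06). H2-Q9 had the same count as H2-Q7 in each library, so the pair shares its reads and is 1 measurement. Cd300lf, an immunoreceptor, rose by 1.78 in libraries 1 and 2 and by 1.03 in 3 and 4 (difference -0.75 ± 0.083, edgeR adjusted p = 0.0022). Without CM library 4, 25 genes differed between sets. Of 894 called list members, 204 were no longer called without the set term, among them B2m, Blvrb, C3ar1, Ctss, Jun, Lrp1, Sdhb and Tlr3. In libraries 1 and 2 alone B2m, Batf3, Bcl2, Cd163 and Ebp were not called, and by the most-counted exon of each gene Kdm6b was not.

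**Figure D5:**
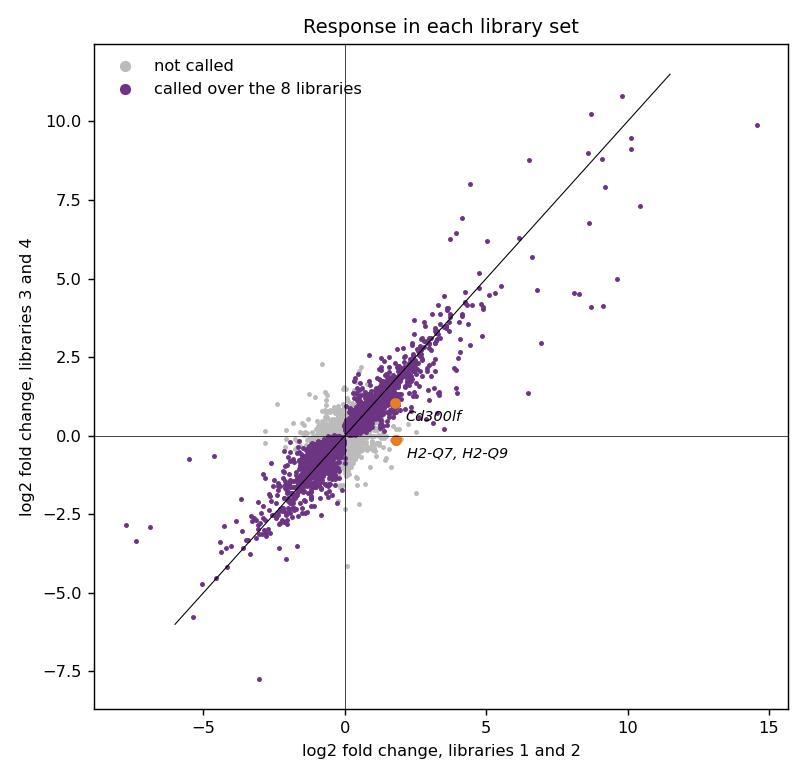
Log2 fold change in CM for each tested gene in libraries 1 and 2 (horizontal axis) and in libraries 3 and 4 (vertical axis), with called genes in purple, the rest in grey and a line of equality. Called genes lie along the line, and the marked genes H2-Q7, H2-Q9 and Cd300lf, below it, are those whose response differed between sets; the most extreme points are genes almost without counts in 1 medium.

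The WT response differed from the KO response for 164 of 13311 genes (1.23%) in a fit of all 14 libraries, with 77 (0.578%) having the higher (more positive) and 87 (0.654%) the lower log2 change in WT. Spp1 rose in WT cells by less than in KO cells, with a difference of -0.42 (edgeR adjusted p = 0.00203), and so did Clec10a (-0.43, 0.00465). The class II genes H2-Aa and H2-Eb1 fell by less in WT than in KO cells, with differences of 0.52 and 0.65 (edgeR adjusted p = 0.00943 and 0.00373). Arg1 did not differ beyond its error (-0.097, edgeR adjusted p = 0.987). On the component of exon shares (each exon as a share of its gene's count) that separates the library sets, the 6 KO libraries scored -63.1 to -55.1, WT libraries 1 and 2 of both media -70.3 to -63.7 and WT libraries 3 and 4 62.1 to 69.8, so KO libraries lay on the side of WT libraries 1 and 2, with which they were fitted. Without the set term 0 genes passed in edgeR, with 1050 at an unadjusted p below 0.05, and with WT libraries 1 and 2 alone 11 passed. Leaving out 1 library at a time gave 51 (without KO control library 2) to 290 (without WT control library 2).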

How the data were processed

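Raw read counts per exon were deposited by the authors in 1 table, and per the submitters' processing notes reads were aligned with HISAT2 to mm10; versions, counting tool, annotation and strand setting are not given in the sources used here. Exons shared by transcript models are listed repeatedly: 196941 of 427386 entries repeat another of their gene and hold 48.6% of the count total. Gene counts are sums over the 230445 distinct exons, so a fragment spanning exons can count more than once, and depth is not a number of fragments. Genes were fitted with edgeR 4.0.16 in R 4.3.3 over the 8 WT libraries, with medium and library set as terms (quasi-likelihood test, TMM scaling, filterByExpr at its minimums of 10 counts and 15 in total, Benjamini-Hochberg adjustment over all 13091 genes). The SE is the log2 change divided by the root of F. For genes almost without counts in a medium, the fold depends on the prior count, and this SE can be smaller than the counting error. The fit was tested on simulated data, where the share of false calls was above the nominal 5%.

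Genes were named by rule: the 15 largest changes each way, up to 3 members of each of 64 lists with the smallest p and up to 3 called against the majority, the 8 largest shifts in level per kilobase each way, genes with 0 counts in 1 medium, and a fixed set of macrophage genes. Predicted, clone, RIKEN, microRNA, mitochondrial, pseudogene, immunoglobulin and T cell receptor symbols were left out of both rankings and of the rule on 0 counts. Other members named as examples were chosen after their values were seen. The rules on overlap and on the smallest p favour genes whose media are apart. For genes named by them, a lack of overlap is therefore no separate support. The members, lists and library sets were chosen with earlier results of these data known. Lists are described by counts and medians, with no set test. Gene positions are from the GENCODE M21 annotation of mm10, promoters from RefSeq. Whether replicate numbers pair control and CM libraries was checked by correlating deviations from group means. Same-numbered libraries gave 0.366, 0.396, 0.511 and 0.505, above the limit of 0.1 set for pairing. Different numbers within a set gave 0.353 to 0.491, also above it. The check therefore cannot tell pairing by number from a shared library set. Alternatives are other scalings (DESeq2 size factors, library totals), filters, exon sums, fits (DESeq2 1.42.0, limma-voom with limma 3.58.1, replicate block, no set term, all 14 libraries), either set alone and each library left out. Some genes named by these rules are not reported here, though they enter the fits and counts. Intervals cover counting error only.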

Additional observations from a re-analysis of the deposited data

Results flagged for a closer look

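For 17 of the named genes the response to CM differed between WT and KO cells in a test of the genotype by medium interaction over all 14 libraries (edgeR, adjusted p below 0.05). These genes rose by less in WT than in KO (WT minus KO, log2): Ednrb (-0.30), Gda (-0.45), Clec10a (-0.43), Spp1 (-0.42), Cd274 (-0.42), Pgam1 (-0.24), Psap (-0.22), Rrm1 (-0.37), Tle3 (-0.30), Vwf (-0.31) and Lamp1 (-0.29). H2-Aa (0.52), H2-Eb1 (0.65), Sod1 (0.35), Aif1 (0.47) and Adgre1 (0.27) fell by less in WT than in KO, and Atp5j (0.33) rose by more. KO libraries lie in 1 library set, and in the fit without the set term 0 genes passed.

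Of 477 groups of 4 libraries checked, 18 held a library that stood apart from the other 3, and chance flags about 1 in 20. In control medium the high ones were Dusp4 (8.89 CPM, library 1), Itgam (1252 CPM, library 1), Adgre1 (3573 CPM, library 1) and Cd209a (0.0708 CPM, library 4). The low ones were Cd83 (35.5 CPM, library 3), Ctsd (7955 CPM, library 3), Pltp (3076 CPM, library 1), Cd4 (0.966 CPM, library 1), Bhlhe40 (7.54 CPM, library 2) and Nr4a1 (5.97 CPM, library 2). In CM, Cpt1a (131 CPM, library 1), Fcrls (21.9 CPM, library 2), Siglech (0.0851 CPM, library 2), Atf3 (84.6 CPM, library 3), Afp (2.50 CPM, library 4) and Nos2 (0.325 CPM, library 4) were high, and Rbpj (419.9 CPM, library 2) and H2-DMb2 (1.77 CPM, library 3) were low.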

How the results depend on the processing

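Of 242 named genes that were tested, 201 kept their direction and side of the threshold under every alternative run, and in 5046 comparisons 0 called genes turned direction; 5 genes that were not called (Lyz2, Il1b, Chil3, Kit and Cd79b) did so in 18. Among 894 called list members, 618 kept the call under every alternative, 204 lost it without the library set term, 91 when 1 library was left out, and 4 (Ctsa, Gins1 and Pole by the most-counted exon, H2-Q7 in libraries 3 and 4) had the opposite sign in 1 fit. The number of genes called stayed within 1.5 times 6839 under each scaling, filter, exon sum and tool run, and was 6120 to 6684 when 1 library was left out. Without the library set term it was 4318 (2240 higher, 2078 lower). With libraries 1 and 2 alone it was 4596 (2442 higher, 2154 lower), and with libraries 3 and 4 alone 6058 (3173 higher, 2885 lower). Both sets hold the same number of libraries, and libraries 3 and 4 are deeper. The causes of the lower numbers were not tested. Counting changes of 2-fold or more alone gave 1006 genes (594 higher, 412 lower). With the replicate number as a block in place of the set, 6798 genes were called (3449 higher, 3349 lower), and among list members Afp, Cd55, H2-Q7 and 3 others lost the call. For the response differing between library sets, leaving out 1 library gave 3 to 25 genes. For the response differing between WT and KO (164 genes) it gave 51 to 290, while the fit without the set term gave 0 (1050 at an unadjusted edgeR p below 0.05; no other tool was run) and WT libraries 1 and 2 alone gave 11; the cause was not tested. Depth limits genes at a few counts per library: Nos2, Il12b and Il6 did not pass the filter, and of these only Il6 was called in the fit without it.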
